A study of Homo sapiens with 65 samples.

Results

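MESP1, MESP2, TBX6, DLL1, DLL3, LFNG, HES7, MSGN1 and RIPPLY2 are 9 of the 58735 genes in a count table of human left-ventricular cardioids, which are heart-like aggregates grown from WTC-11, a human line of induced pluripotent stem cells. The 9 were listed by name as genes of nascent and presomitic mesoderm, and MESP1, MESP2 and DLL3 were put on the list for calls at day 2.5 both in HAS2 knockout cardioids and in hyaluronidase-treated cardioids. The differences of these 3 genes in those comparisons are therefore description, and no test of them is offered as support. Steps into and out of day 2.5 share libraries with that choice, so they are not independent of it either.

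The 65 libraries form 16 groups in 2 arms, and each was made from 8 pooled cardioids, per the labels, which do not say what was pooled at day 1.5, the day of aggregation. In the genotype arm, wild-type lines (WT) and clones labelled HAS2-KO (KO) went through the same differentiation and were collected at day 1.5 (5 WT and 6 KO libraries), day 2.5 (6 and 6), day 4.5 (6 and 6) and day 7.5 (3 and 3). Names of 4 lines occur among the WT libraries (TNT2, WT, cl43_WT_UT, WT_TU), and the KO libraries come from 4 clones (cl4, cl14, cl46 and cl51), with cl4 sampled repeatedly. In the enzyme arm, cardioids were left untreated or given hyaluronidase from day 1.5 (HAse1.5) or day 2.5 (HAse2.5), with 3 libraries in each of 8 groups at days 2.5, 4.5 and 7.5. Replicates 1, 2 and 3 there are the lines TNNI1, WT and TNNT2. Per the labels' growth protocol, cells were induced to mesoderm in flat culture until day 1.5, then dissociated and reseeded as aggregates. The step from day 1.5 to day 2.5 therefore spans the change of medium and of culture form. HAS2 encodes a hyaluronan synthase, and hyaluronidase digests hyaluronan, a sugar polymer of the extracellular matrix.

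MESP1 and MESP2 encode related basic helix-loop-helix transcription factors that are switched on briefly as mesoderm leaves the primitive streak. MESP1 marks the earliest cardiac progenitors. MESP2 is best known from the presomitic mesoderm, where the T-box factor TBX6 and Notch signalling activate it at the boundary of the next somite. DLL1 is a Notch ligand, DLL3 a divergent Delta protein that does not act as a conventional ligand, LFNG a glycosyltransferase that modifies Notch receptors, and HES7 a repressor of the segmentation clock. MSGN1 is a transcription factor of early presomitic mesoderm, and RIPPLY2 limits TBX6 and MESP2 activity.

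MESP1 and MESP2 are neighbours on chromosome 15 (GRCh38, GENCODE 29). MESP1 (ENSG00000166823) lies at 89748661 to 89751310 on the minus strand, and MESP2 (ENSG00000188095) at 89760591 to 89778754 on the plus strand, with 9280 bases between them. Neither overlaps another annotated gene. Their annotated transcripts share no exact run longer than 48 bases, and their last 500 bases, where a 3′ library reads, none longer than 11. TBX6 lies on chromosome 16 (30085793 to 30091887, minus strand), DLL3 on chromosome 19 (39498895 to 39508481, plus strand), LFNG on chromosome 7 (2512529 to 2529177, plus strand) and DLL1 on chromosome 6 (170282206 to 170306565, minus strand). DLL1 overlaps FAM120B on the opposite strand, with no overlap between exons.

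RefSeq promoter sequence on GRCh38.p14 was at hand for 6 of the 9 genes. The 250 bases before the RefSeq start, which for MESP2 lies inside the longer GENCODE gene, are shown for MESP2, the gene with the highest log2 fold change at day 2.5 among the tested members in both arms, and for TBX6, whose product is known to act on MESP2. Capitals mark matches on either strand to the T-box core AGGTGT, which reads as ACACCT on the opposite strand, to TGGGAA, the core bound by the Notch effector RBPJ and reading as TTCCCA on the opposite strand, and to the E-box CANNTG, the site class of basic helix-loop-helix factors.
MESP2, chr15:89776082-89776331, plus strand: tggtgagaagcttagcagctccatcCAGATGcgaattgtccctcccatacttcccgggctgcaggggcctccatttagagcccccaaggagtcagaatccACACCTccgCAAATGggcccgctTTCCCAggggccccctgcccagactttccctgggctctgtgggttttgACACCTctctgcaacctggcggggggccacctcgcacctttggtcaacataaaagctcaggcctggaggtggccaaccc
TBX6, chr16:30091925-30092174, minus strand: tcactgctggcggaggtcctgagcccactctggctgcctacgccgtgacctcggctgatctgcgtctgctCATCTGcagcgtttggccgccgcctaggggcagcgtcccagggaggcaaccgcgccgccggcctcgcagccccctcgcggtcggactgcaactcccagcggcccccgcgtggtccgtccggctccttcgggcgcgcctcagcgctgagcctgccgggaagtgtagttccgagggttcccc
The MESP2 window holds 2 T-box cores, 1 RBPJ core and 2 E-boxes, none of which overlap. Of 35116 promoter windows of this length, 9.57% hold at least 1 T-box core, 0.646% hold 2 or more, 20.9% hold an RBPJ core and 61.8% hold an E-box. The TBX6 window holds 1 E-box and neither of the other motifs. These matches describe the letters only.

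Total counts ran from 831062 (KO clone cl4_R1 at day 2.5) to 3574843, with group medians between 1347971 and 1997768. Levels are given as counts scaled to a common library total (CPM, counts divided by the library's total count and multiplied by 1e6). HAS2 itself was still counted in the libraries labelled KO, with 442 to 913 CPM at day 2.5 against 370 to 869 CPM in WT. Its 3′ counts overlap between the groups and do not check the knockout label. In bulk libraries, fewer cells of a type and less RNA per cell cannot be told apart. Each condition holds at least 3 biological replicates per the labels, which do not say what separated repeats of 1 line, so p-values measure the spread between these libraries. The labels call the day 2.5 cells cardiac progenitors, and in WT at day 2.5 the summed CPM was 411 to 2978 for 6 cardiomyocyte markers, 819 to 1002 for 10 primitive streak genes and 1.02 to 6.48 for 6 endothelial markers. WT_TU_R1 (411 CPM) and WT_R1 (819.6 CPM) had the lowest cardiomyocyte sums, and the other 4 WT libraries had 2417 to 2978.

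**Figure D1:**
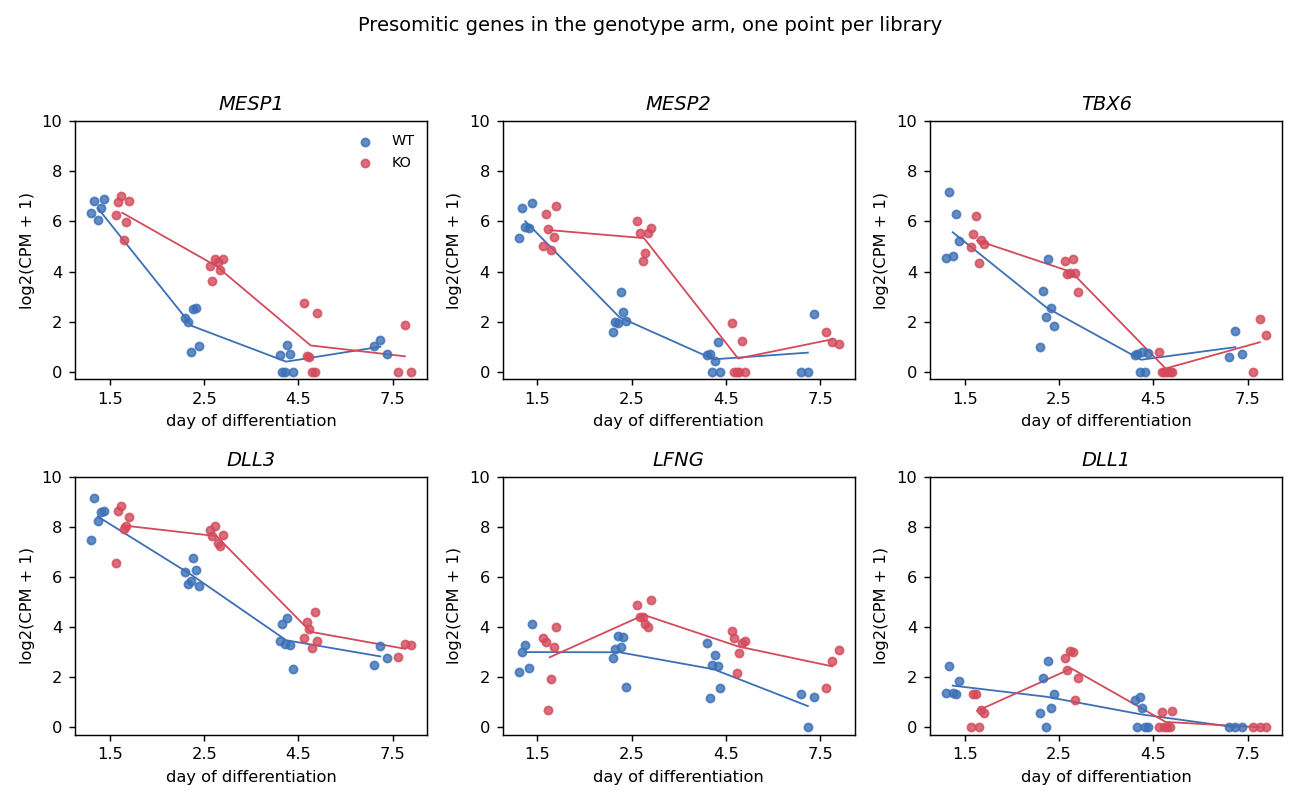
CPM of 6 genes in the genotype arm, plotted as log2(CPM + 1) against day. Each point is a library, the lines join group means, WT is blue and KO red. MESP1, MESP2, TBX6 and DLL3 start high in both genotypes, and at day 2.5 every KO library lies above every WT library for MESP1, MESP2, DLL3 and LFNG.

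At day 1.5 the mesoderm transcription factors were abundant in both genotypes. MESP1 was at 66.3 CPM in WT_R2, 80.1 in TNT2, 93.0 in WT_TU_R1, 112 in WT_R1 and 118 in cl43_WT_UT. In the KO libraries its lowest value was 37.1, its median 93.0 and its highest 127 CPM, so the genotypes overlapped. MESP2 was at 39.3, 51.8, 53.3, 91.2 and 105 CPM in TNT2, WT_TU_R1, WT_R2, WT_R1 and cl43_WT_UT, and ran from 28.2 through a median of 46.3 to 97.5 CPM in KO. TBX6 in WT ran from 22.2 CPM (TNT2) to 146 (WT_R1) with a median of 36.4, and KO libraries from 19.4 to 74.5. DLL3 was the most counted of the 9, with 177 to 576 CPM in WT and 94.2 to 458 CPM in KO.

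The Notch genes LFNG and DLL1 were low at day 1.5. LFNG had 8.02 ± 5.15 CPM in WT (SD, n = 5) and 7.84 ± 5.31 in KO (SD, n = 6), and DLL1 had 2.33 ± 1.28 and 0.689 ± 0.690 CPM. HES7 was at 0.676 ± 1.35 CPM in WT and RIPPLY2 at 0.619 ± 1.12. No library of the series had a count of MSGN1. HES7 had 109 counts in all 65 libraries together and RIPPLY2 16, so neither entered a test in either arm, and changes in them were not detectable at this depth. Of the 9 genes, 6 passed the filter on low counts in the genotype arm and 5 in the enzyme arm, where DLL1 also fell out.

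At day 1.5 no difference between the genotypes was detectable in these genes. Of the 6 tested, 0 passed an adjusted p of 0.05 (edgeR quasi-likelihood, Benjamini-Hochberg over all genes), and 0 of 13797 genes did (0%). At an unadjusted p under 0.05, edgeR counted 1 of the 6 and 591 of all genes (4.28%), and DESeq2 also called 0 genes. The log2 fold change of KO against WT was −0.13 for MESP1 (95% interval −0.87 to 0.61), −0.35 for MESP2 (−1.13 to 0.43), −0.67 for TBX6 (−1.58 to 0.25) and −0.34 for DLL3 (−0.96 to 0.28). DLL1 had −1.60 (−3.10 to −0.10, adjusted p 0.937), at the lowest levels of the 6.

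Over the next day MESP1, MESP2, TBX6 and DLL3 fell in WT. From day 1.5 to day 2.5 MESP1 fell from 93.9 ± 21.6 to 2.94 ± 1.76 CPM (SD, n = 5 and 6). MESP2 fell from 68.1 ± 28.4 to 3.84 ± 2.17, TBX6 from 60.9 ± 52.3 to 7.0 ± 7.58 and DLL3 from 366 ± 146 to 69.0 ± 22.4 CPM. For these 4 genes no day 2.5 library reached the lowest day 1.5 value, which held for 5.44% of all genes. The log2 fold changes were −5.13 ± 0.46, −4.27 ± 0.46, −3.27 ± 0.50 and −2.63 ± 0.32 (SE), and all 4 passed (edgeR adjusted p 1.46e-11, 1.47e-09, 2.28e-06 and 2.64e-08). These are 4 of 6 tested members that fell, where 15.1% of all 13797 genes fell. MESP1, MESP2 and DLL3 among these 4 were chosen on a comparison that includes the same WT libraries of day 2.5. Their values here are description, and nothing is read from the count. LFNG (7.76 ± 3.51 CPM at day 2.5) and DLL1 (1.82 ± 1.97) did not pass, with log2 fold changes of −0.24 (−1.23 to 0.75) and −0.45 (−1.79 to 0.90). The sign for LFNG turned without cl43_WT_UT at day 1.5 (0.15).

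In KO cells the members parted ways over the same day. MESP1 fell from 87.2 ± 34.5 to 18.0 ± 3.98 CPM (SD, n = 6 each), a change of −2.52 ± 0.39 on the log2 scale (SE, adjusted p 2.15e-06 by edgeR), and TBX6 from 40.0 ± 18.9 to 15.5 ± 4.93 CPM (−1.61 ± 0.47, adjusted p 0.00674). DLL3 went from 298 ± 129 to 201 ± 41.4 CPM (−0.80 ± 0.30, adjusted p 0.0337), and this call was lost in 10 of its 20 alternatives, among them without cl4_R1, cl46_R1 or cl51_R1 at day 1.5 and without cl4_R2, cl4_R3, cl46_R1 or cl51_R1 at day 2.5. MESP2 had 54.6 ± 27.6 CPM at day 1.5 and 42.4 ± 16.6 at day 2.5, and its log2 fold change of −0.56 (95% interval −1.32 to 0.20) did not pass (adjusted p 0.268). So 3 of 6 tested members fell, where 16.1% of all genes fell. MESP1 and DLL3 among them were chosen on these day 2.5 libraries, so nothing is read from the count.

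LFNG and DLL1 went the other way in KO, unlike DLL3. LFNG rose from 7.84 ± 5.31 to 22.2 ± 6.88 CPM (1.32 ± 0.46 on the log2 scale, SE, adjusted p 0.0244) and DLL1 from 0.689 ± 0.690 to 4.63 ± 2.44 CPM (2.24 ± 0.72, adjusted p 0.0145), so 2 of 6 rose where 17.2% of all genes did. Every KO library had more LFNG at day 2.5 (15.0 to 32.7 CPM) than any had at day 1.5 (0.616 to 14.9), which held for 13.0% of all genes. LFNG kept its call in 15 of 20 alternatives, losing it without cl4_R1 or cl4_R2 at day 1.5, without cl14_R1 or cl51_R1 at day 2.5, or with repeats of a clone summed. DLL1 kept it in the 9 alternatives in which it passed the filter on low counts, on at most 11 counts per library.

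At day 2.5, 4 of the members lay apart between the genotypes. MESP1 was at 0.713, 1.02, 2.94, 3.44, 4.63 and 4.89 CPM in WT_R2, cl43_WT_UT, WT_R1, TNT2, WT_TU_R1 and WT_TU_R2. In KO it was at 11.5, 15.6, 17.8, 19.7, 21.7 and 21.8 CPM in cl46_R1, cl4_R3, cl14_R1, cl4_R2, cl4_R1 and cl51_R1. All KO libraries lay above all WT libraries.
MESP2 was the member with the highest log2 fold change here. Its WT values were 1.97 (TNT2), 2.85 (WT_R2), 2.94 (WT_R1), 3.06 (cl43_WT_UT), 4.19 (WT_TU_R2) and 8.02 CPM (WT_TU_R1). Its KO values were 20.5 (cl4_R1), 25.5 (cl4_R2), 45.3 (cl46_R1), 46.1 (cl4_R3), 52.8 (cl51_R1) and 64.2 CPM (cl14_R1). The groups did not overlap.
DLL3 ran from 48.9 to 108 CPM in WT with a median of 64.4, and from 148 to 260 in KO with a median of 201, again without overlap.

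**Figure D2:**
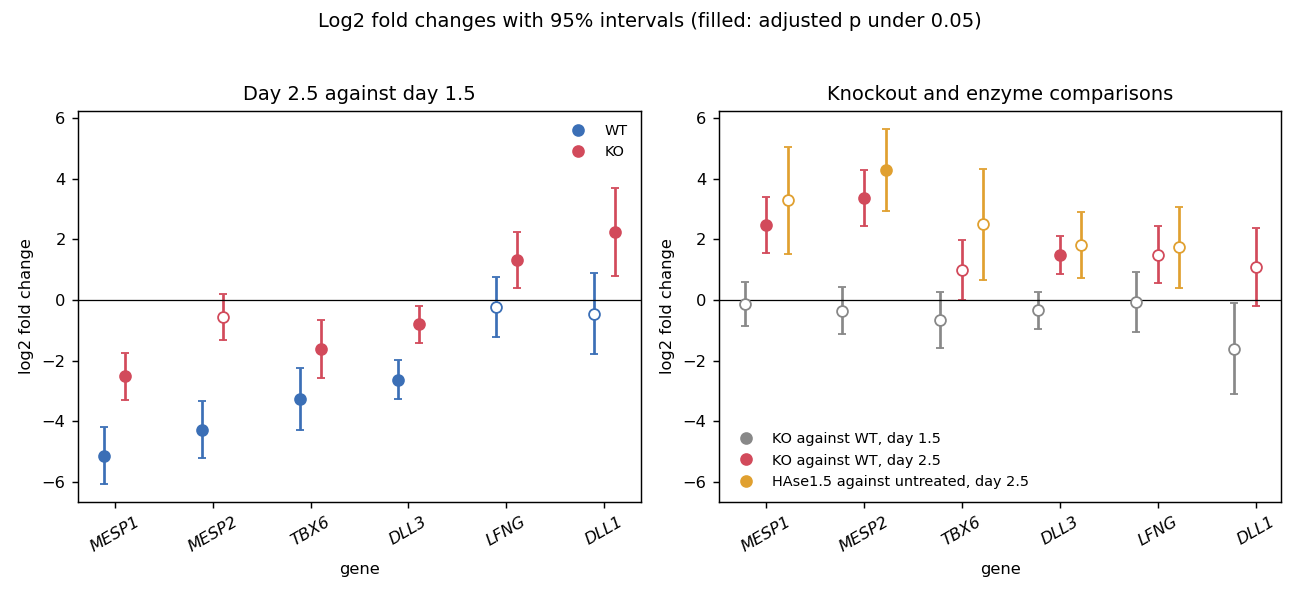
Log2 fold changes (y axis) with 95% intervals for 6 genes, for the step from day 1.5 to day 2.5 in each genotype (left) and for knockout and enzyme comparisons (right). Filled points have an adjusted p under 0.05. MESP2 is at −4.27 in the WT step and at −0.56 in the KO step, and at 3.36 and 4.30 in the KO and HAse1.5 comparisons at day 2.5.

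KO against WT at day 2.5 gave log2 fold changes of 2.48 for MESP1 (95% interval 1.56 to 3.41), 3.36 for MESP2 (2.45 to 4.27) and 1.49 for DLL3 (0.87 to 2.10). At day 2.5, 68 of 13797 genes were called higher in KO (0.493%). The 3 genes are among them by choice, and nothing is read from that count. DLL3 is the member just inside the threshold (adjusted p 0.0061) and LFNG the one just outside (0.13). LFNG had 2.04 to 11.4 CPM in WT and 15.0 to 32.7 in KO, also without overlap, and a log2 fold change of 1.49 ± 0.46 (SE). Groups lay apart with KO higher for 4 of the 6 tested members and for 1.17% of all genes, and 3 of those 4 were chosen on these libraries. TBX6, at 0.983 to 21.6 CPM in WT and 8.04 to 21.6 in KO, overlapped between genotypes (log2 fold change 0.99 ± 0.50, SE, adjusted p 0.476). The highest WT value was WT_TU_R1, and the next was WT_R1 with 8.44 CPM, the same 2 libraries that had the lowest cardiomyocyte marker sums, and the part of that in the TBX6 result was not tested. DLL1 had 0 to 5.24 CPM in WT and 1.11 to 7.22 in KO (1.08 ± 0.64, adjusted p 0.559).

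The genotype libraries carry numbers in 3 consecutive runs, and the differences were read within each. MESP1 in KO lay above WT in the first run (21.7 CPM in 1 library against 2.94 and 4.63), the second (19.7 against 0.713 and 4.89) and the last (11.5 to 21.8 in 4 libraries against 1.02 and 3.44). MESP2 did so as well, with 20.5 against 2.94 and 8.02, 25.5 against 2.85 and 4.19, and 45.3 to 64.2 against 1.97 and 3.06 CPM. DLL3 and LFNG also lay above WT in all 3 runs. For MESP1, MESP2, DLL3 and LFNG this order follows from the lack of overlap between all KO and WT libraries. The reading within runs is therefore no further check of these genes. TBX6 did in the second and the last run, while in the first the KO library (14.4 CPM) lay between the WT libraries (8.44 and 21.6). These WT libraries of the first run are WT_R1 and WT_TU_R1, which had the lowest cardiomyocyte marker sums in WT. The KO library of that run, cl4_R1, had the lowest sum in KO (880 CPM). Run and marker level thus go together here, and the part of either was not tested. With the run as a term in the fit, TBX6 had a log2 fold change of 1.71 and passed (edgeR adjusted p 0.0079).

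The KO difference was larger at day 2.5 than at day 1.5 by 3.71 on the log2 scale for MESP2 (95% interval 2.52 to 4.90), by 2.61 for MESP1 (1.43 to 3.80) and by 1.83 for DLL3 (0.95 to 2.70). These values contain the day 2.5 contrast that chose the genes and are given as description. Of the members not chosen on it, none of TBX6 (1.66), DLL1 (2.68) and LFNG (1.56) passed the test of this change (edgeR adjusted p 0.798, 0.644 and 0.913). It was passed by 11 of 13797 genes (0.0797%).

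The order of the MESP pair differed between the days in KO. Both genes were chosen on the day 2.5 libraries, so their ratio is given as description, with no test. At day 1.5 MESP1 had more counts than MESP2 in 5 of 5 WT and 6 of 6 KO libraries. At day 2.5 MESP2 had more in 5 of 6 KO libraries, the exception being cl4_R1, the shallowest library, with 18 and 17 counts. The log2 ratio of MESP2 to MESP1 counts within a KO library was −0.71 ± 0.47 at day 1.5 and 1.16 ± 0.84 at day 2.5 (SD, n = 6 each). The difference was 1.87, and 2.24 with repeats of a clone summed (4 clones per day). The ratio compares groups for the same gene pair and does not rank the genes by level, since per-gene capture is unknown. In WT at day 2.5 both genes had at most 26 counts per library, and either could be the higher.

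**Figure D3:**
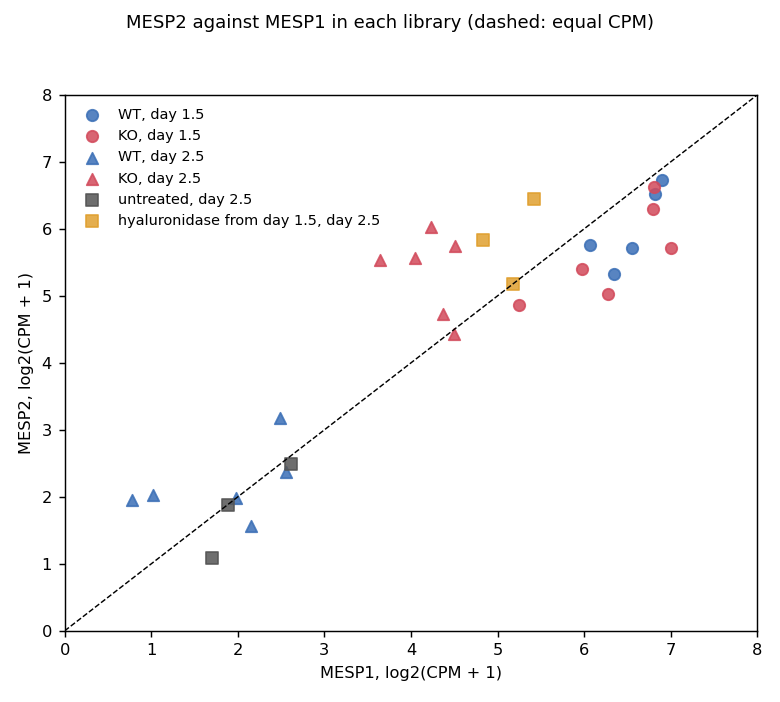
MESP2 (y axis) against MESP1 (x axis), both as log2(CPM + 1), in each library of days 1.5 and 2.5. The dashed line marks equal CPM. Day 1.5 libraries lie below the line, 5 of 6 KO libraries of day 2.5 lie above it, and WT and untreated libraries of day 2.5 lie at the lower left.

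Of the pair's nearest protein-coding neighbours, 1 could be tested. ANPEP, which encodes a membrane aminopeptidase and lies 6134 bases beyond MESP2, had 30.2 ± 8.05 CPM in KO and 20.3 ± 6.50 in WT at day 2.5 (SD, n = 6 each, log2 fold change 0.50 ± 0.33, SE, edgeR adjusted p 0.606). It rose in the KO step from day 1.5 (1.25 ± 0.34, adjusted p 0.00487), in which MESP1 fell. WDR93, 5022 bases from MESP1 on the other side, had at most 3 counts in any library compared and was not tested.

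With hyaluronidase from day 1.5, the treated libraries of MESP1, MESP2, TBX6 and LFNG lay above the untreated ones at day 2.5. The day 2.5 untreated libraries are taken as untreated from their titles, since their column names in the table carry the enzyme's abbreviation without the control mark used at later days. MESP2 had 4.6, 2.68 and 1.12 CPM in untreated replicates 1, 2 and 3 and 85.8, 35.1 and 56.2 CPM in HAse1.5 replicates 1, 2 and 3. Its treated values lay above all untreated ones. MESP1 had 5.11, 2.68 and 2.24 CPM untreated and 41.9, 35.1 and 27.5 CPM treated, also apart. The 3 lines thus gave the same direction for both genes.

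DLL3 had 78.1, 27.7 and 25.8 CPM in untreated replicates 1 to 3 and 261, 41.5 and 182 CPM in HAse1.5. The treated WT line (replicate 2) was higher than its own untreated library by 1.5-fold, against 3.34-fold in TNNI1 and 7.05-fold in TNNT2, and lay below the untreated TNNI1 library. TBX6 had 2.04, 0.894 and 2.80 CPM untreated and 17.2, 7.19 and 11.9 treated. LFNG had 11.2, 4.47 and 5.05 CPM untreated and 26.1, 28.8 and 18.1 treated. Both were apart between groups.

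The log2 fold changes of HAse1.5 against untreated were 4.30 for MESP2 (95% interval 2.95 to 5.65), 3.28 for MESP1 (1.52 to 5.05), 2.50 for TBX6 (0.67 to 4.34), 1.81 for DLL3 (0.73 to 2.90) and 1.74 for LFNG (0.40 to 3.07). MESP2, MESP1 and DLL3 were listed for this comparison, so their values are description, and nothing is read from the count of members called. In this fit that count was 1 of 5 tested (MESP2), beside 32 of 12748 genes called higher (0.251%). The listing's call for MESP1 and DLL3 was not met here (adjusted p 0.0611 and 0.11). It was met with the line as a replicate block (edgeR adjusted p 0.014 and 0.0282, and 0.000499 for MESP2). DLL3 also passed without untreated replicate 1 or HAse1.5 replicate 2. TBX6 (adjusted p 0.271, blocked 0.224) and LFNG (0.295, blocked 0.217) passed in neither. Groups lay apart with treated higher for 4 of the 5 and for 6.79% of all genes, and MESP1 and MESP2, 2 of those 4, were chosen on these libraries.

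**Figure D4:**
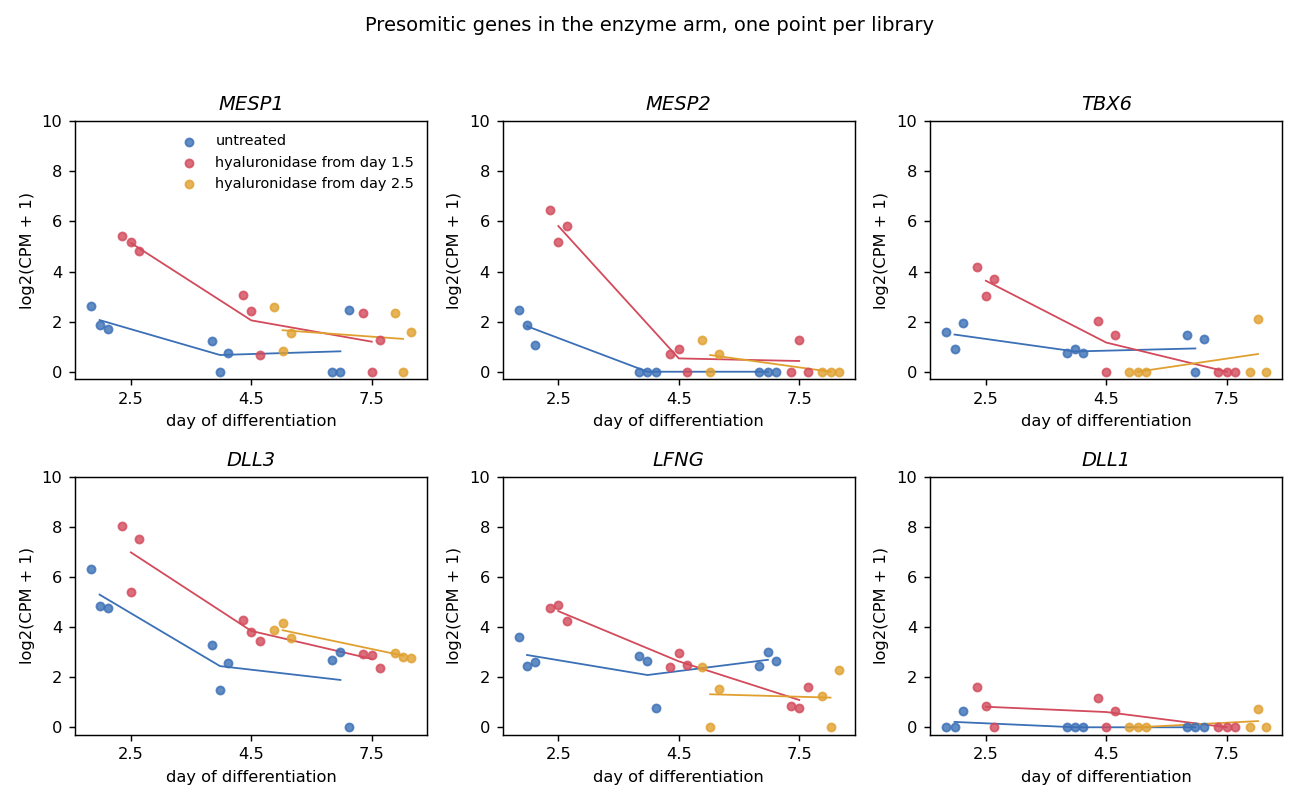
CPM of 6 genes in the enzyme arm, plotted as log2(CPM + 1) against day, with untreated libraries in blue, hyaluronidase from day 1.5 in red and from day 2.5 in orange. Each point is a library and lines join group means. At day 2.5 the 3 treated libraries of MESP1, MESP2, TBX6 and LFNG lie above all untreated ones. At day 4.5 the treated libraries of DLL3, from 9.89 to 18.6 CPM, lie above the untreated ones. At day 7.5 the untreated libraries of LFNG lie above those of HAse1.5, as for 6.90% of all genes.

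The knockout and enzyme differences at day 2.5 were set against each other in a fit of all 65 libraries. The KO difference minus the HAse1.5 difference was −0.98 for MESP2 (95% interval −2.62 to 0.66), −0.83 for MESP1 (−2.61 to 0.95), −1.55 for TBX6 (−3.54 to 0.44), −0.37 for DLL3 (−1.53 to 0.79) and −0.28 for LFNG (−1.89 to 1.34). MESP1, MESP2 and DLL3 were listed for calls in both of these differences. Their values here are therefore description, and nothing is read from the count of members. Of the 5, 0 passed by edgeR or DESeq2 or had an unadjusted p under 0.05. Over all genes, 13 of 14047 passed (0.0925%) and 4.95% had an unadjusted p under 0.05. WT and untreated controls at day 2.5 did not differ past the threshold for any of the 5 (0.00712% of all genes did). TBX6 was the widest, with 1.85 (0.26 to 3.43, edgeR adjusted p 0.203), and was the 1 gene of the 5 with an unadjusted p under 0.05, beside 17.7% of all genes. DESeq2 called 0.

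After day 2.5 these transcripts went down. From day 2.5 to day 4.5 in KO, all 6 tested members fell, where 14.9% of all genes fell. MESP1, MESP2 and DLL3 were chosen on the day 2.5 libraries, so their falls and adjusted p-values are description. Nothing is read from the count of members. MESP2 went from 42.4 to 0.698 ± 1.18 CPM (log2 fold change −5.99 ± 0.60, SE, edgeR adjusted p 1.78e-10), with 0 counts in 4 of 6 libraries. MESP1 went to 1.80 ± 2.45 CPM (−3.32 ± 0.52, adjusted p 2.11e-06) and DLL3 to 13.9 ± 5.76 (−3.83 ± 0.35, adjusted p 1.22e-11). TBX6 and DLL1 reached the floor, taken as 3 counts or fewer in every library, and were at least 8.56-fold and 2.56-fold lower. LFNG went to 8.97 ± 3.44 CPM (−1.32 ± 0.46, adjusted p 0.0267), and lost its call without cl4_R1 or cl4_R2 at day 4.5 or without cl14_R1 or cl51_R1 at day 2.5.

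In WT, 4 of 6 fell over the same days, against 15.9% of all genes. The choice of MESP1, MESP2 and DLL3 used day 2.5 libraries of WT, HAse1.5 and untreated cardioids as well. Their values below are description too, and nothing is read from the counts of members. DLL3 went from 69.0 to 11.3 ± 5.72 CPM (−2.5 ± 0.33, SE, edgeR adjusted p 1.04e-07). MESP1, MESP2 and TBX6 reached the floor and were at least 1.84-, 2.41- and 4.40-fold lower. In HAse1.5 cardioids, 5 of 5 tested members fell, against 11.0% of all genes, with MESP2 at least 28.6-fold lower, MESP1 at −3.24 ± 0.85, DLL3 at −3.69 ± 0.59 and LFNG at −2.37 ± 0.67 on the log2 scale (SE). LFNG lost its call without HAse1.5 replicate 3 at day 4.5 (adjusted p 0.056), and TBX6 (−2.91 ± 0.91) lost it in 5 of its 11 alternatives, which were DESeq2 and leaving out replicate 1 or 3 at day 2.5 or replicate 2 or 3 at day 4.5. In untreated cardioids MESP2 and DLL3 fell, 2 of 5 against 11.1% of all genes, and without untreated replicate 1 at day 2.5 MESP2 lost its call (adjusted p 0.06).

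At days 4.5 and 7.5 no member passed the threshold between genotypes. Of the 6 tested members 0 passed for KO against WT at day 4.5 (3.74% of all genes did) and 0 at day 7.5 (0.348%). For each day edgeR and DESeq2 both counted 1 at an unadjusted p under 0.05, as edgeR did for 19.1% of all genes at day 4.5 and 5.53% at day 7.5, and DESeq2 called 0. At day 4.5 MESP1 had 5.69 CPM in cl14_R1 and 4.05 in cl51_R1 and at most 0.539 CPM in the other 4 KO libraries, while in WT it reached 1.08. LFNG had 8.97 ± 3.44 CPM in KO and 4.65 ± 2.94 in WT (log2 fold change 0.86, 95% interval −0.14 to 1.86), and DLL3 13.9 ± 5.76 and 11.3 ± 5.72. At day 7.5 DLL3 had 4.62 to 8.37 CPM in WT and 5.97 to 9.11 in KO. LFNG had at most 3 counts in a WT library and 1.99, 5.21 and 7.48 CPM in KO, at least 2.63-fold higher, which did not pass (edgeR adjusted p 0.695). Groups lay apart with KO higher for 9.11% of all genes at that day.

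Late treatment left little to compare. HAse2.5 cardioids were first collected at day 4.5, when MESP1 had 5.03, 0.781 and 1.92 CPM in replicates 1 to 3, against 7.45, 4.32 and 0.582 in HAse1.5 and 1.36, 0 and 0.695 untreated. DLL3 had 13.7, 17.2 and 10.9 CPM in HAse2.5, 18.6, 13.0 and 9.89 in HAse1.5 and 8.87, 1.78 and 4.87 untreated, so both treated groups lay above the untreated one, as did 12.7% of all genes for HAse1.5 and 9.07% for HAse2.5. Its log2 fold changes were 1.27 (95% interval −0.20 to 2.74) for HAse1.5 and 1.31 (−0.16 to 2.79) for HAse2.5. At day 4.5, 0 of 5 members passed for HAse1.5 (3.48% of all genes) or HAse2.5 (0.220%) against untreated or for HAse1.5 against HAse2.5 (0.361%). At day 7.5, 0 passed either (3.33%, 0.659% and 0.00784%). Over these 6 comparisons edgeR gave 0 or 1 member an unadjusted p under 0.05, beside 5.64% to 16.8% of all genes, and DESeq2 called 0 in each, of the 1 to 5 members to which it gave an adjusted p.

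Between day 4.5 and day 7.5, 0 members passed in WT (2.70% of all genes), KO (6.22%), untreated (6.39%), HAse1.5 (8.17%) or HAse2.5 (1.93%) cardioids by edgeR. edgeR gave 0 to 2 members an unadjusted p under 0.05, beside 13.1% to 24.5% of all genes, and DESeq2 called 1 member in KO and 0 in the others. LFNG in the untreated group was 5.56 ± 1.32 CPM at day 7.5 and at most 3 counts per library in HAse1.5, at least 2.49-fold lower (adjusted p 0.188).

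Across the 16 groups, the mean log2 CPM of MESP1, MESP2, TBX6 and DLL3 followed each other with Pearson correlations of 0.92 to 0.95. LFNG was less alike, with 0.58 to MESP1, 0.63 to TBX6, 0.70 to DLL3 and 0.71 to MESP2. These groups share lines and days, so the values describe the course only. Among 12561 other genes, the most like MESP1 were PIK3R5 (0.96), METTL13 (0.96), NAT10 (0.95), SNHG4 (0.95) and PPAT (0.95). The most like MESP2 were OLFM1 (0.94), SMIM24 (0.94), TAFA5 (0.94), VENTX (0.93) and TAF4B (0.93).

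Genes that act around the members were followed as lists. In KO against WT at day 2.5, where 0.493% of all genes were called higher, 1 of 23 tested other genes of the Notch pathway was, MAML3, a nuclear co-activator of Notch (36.4 ± 7.63 CPM against 12.3 ± 7.49, SD, n = 6 each, log2 fold change 1.58 ± 0.37, SE, edgeR adjusted p 0.0201). The list's median log2 fold change was 9.8e-04, beside 0.0052 over all genes. Of 11 tested somite genes, 2 were higher. TCF15, a basic helix-loop-helix factor of the forming somite, had 21.7 ± 7.37 against 4.04 ± 3.16 CPM (2.34 ± 0.50, adjusted p 0.00871). FOXC1, a forkhead factor of paraxial mesoderm, had 190 ± 64.5 against 68.6 ± 26.2 CPM (1.41 ± 0.27, adjusted p 0.00295). The list's median was 0.51.

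Of 14 tested genes of the tailbud and its WNT and FGF signals, 0 passed by edgeR and 1 by DESeq2, with 7 at an unadjusted p under 0.05 in either (10.5% of all genes in edgeR), and a list median of −0.44. Among 9 primitive streak genes MIXL1 alone passed (18.9 ± 8.12 against 3.37 ± 1.65 CPM, 2.42 ± 0.36, SE, edgeR adjusted p 0.000117), and the list's median was 0.06. In the WT step from day 1.5 the tailbud list fell in 10 of 14 genes and rose in 1 (15.1% and 15.0% of all genes), and in the KO step it fell in 12 and rose in 1 (16.1% and 17.2%). The somite list rose in 5 and fell in 2 of 11 in WT, and rose in 7 in KO.

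Most cardiomyocyte markers were lower in KO at day 2.5. Of 6 cardiomyocyte markers 5 were lower in KO, where 0.500% of all genes were, with TNNT2 and MYH6 at the floor in KO and at least 2.0-fold and 1.61-fold lower. Of 19 cardiac mesoderm genes 1 was lower and 0 higher, with a list median of −0.69 (DESeq2 called 2, and edgeR gave 11 an unadjusted p under 0.05). TBX5, a factor of the left ventricle, was that gene (7.21 ± 4.13 against 30.2 ± 18.6 CPM, −2.06 ± 0.35, SE, edgeR adjusted p 0.00163). The summed cardiomyocyte markers were 880 to 1738 CPM in KO and 411 to 2978 in WT, so the sums overlapped through WT_TU_R1 and WT_R1. Of the other cell types the cultures could hold, 1 of 5 tested endoderm markers was higher in KO, CER1 (15.5 ± 6.44 against 1.37 ± 1.31 CPM, 3.65 ± 0.81, SE, adjusted p 0.0139), and the 6 endoderm markers summed to 14.9 to 105 CPM in KO and 3.57 to 73.7 in WT. Pluripotency markers summed to 373 to 452 CPM in KO and 335 to 477 in WT. Endothelial markers summed to at most 6.48 CPM in either. Neural markers summed to 58.4 to 93.9 CPM in KO (median 69.8) and 35.9 to 70.0 in WT (median 53.5), with PAX6 and NEUROG2 at 0 in both. Neither of the 2 neural markers tested passed in edgeR or DESeq2, and 1 had an unadjusted p under 0.05 in each. The part of these cell types in the differences of the presomitic genes was not tested.

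With HAse1.5 at day 2.5, 4 of 19 cardiac mesoderm genes were lower (0.894% of all genes were), including TBX5 (3.94 ± 2.85 against 50.3 ± 7.54 CPM, SD, n = 3 each, −3.74 ± 0.43, SE, edgeR adjusted p 2.7e-05) and MYOCD, a co-activator of muscle genes (47.8 ± 34.9 against 272 ± 52.7, −2.55 ± 0.43, adjusted p 0.0023). Of 6 cardiomyocyte markers 2 were lower, ACTC1 (−3.23 ± 0.60, adjusted p 0.00605) and MYL4 (−2.80 ± 0.58, adjusted p 0.0175). Of the Notch, tailbud, somite and primitive streak lists 0 genes passed by edgeR, with 2 of 22, 2 of 10, 1 of 7 and 5 of 7 at an unadjusted p under 0.05 (9.22% of all genes), and DESeq2 called 0, 1, 0 and 1. The 10 primitive streak genes summed to 2542 to 4413 CPM in HAse1.5 and 1015 to 1495 untreated. The sum in KO (1049 to 1241) was above that in WT (819 to 1002). On average LHX1 alone made up most of these sums, with 3051 ± 797 CPM in HAse1.5 and 910 ± 201 untreated (SD, n = 3 each). In KO and WT it had 736 ± 60.9 and 539 ± 88.4 CPM (SD, n = 6 each). LHX1 passed in neither comparison (edgeR adjusted p 0.295 and 0.511). The part of streak-stage cells in the MESP2 difference was not tested.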

How the data were processed

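The data are QuantSeq 3′ mRNA libraries (FWD kit, single-end reads, per the labels' protocols). The authors deposited whole-number read counts per Ensembl gene, made with featureCounts of Subread 1.6.2 on hg38/GRCh38, per the submitters' processing notes. The aligner, strand setting and use of molecular identifiers are not given in the sources used here, so floors and counts cover counting error only. All 58735 gene IDs occur in GENCODE 29. A further 4 columns match no listed sample and were not used here.

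Groups came from sample titles. Genes were filtered with filterByExpr (minimum count 10), scaled by TMM and tested with edgeR 4.0.16 (R 4.3.3, robust quasi-likelihood, 1 mean per group, two-sided, Benjamini-Hochberg over all genes tested, threshold 0.05), in 41 genotype and 24 enzyme libraries separately (13797 and 12748 genes) and in all 65 for differences between arms (14047). DESeq2 1.42.0 was an alternative. CPM used plain totals of 831062 to 3574843 counts. A gene with at most 3 counts in every library of a group was at the floor, and folds against it are lower bounds at the mean CPM that 3 counts have in that group. In 115 pairs of replicates the chi-square per degree of freedom was 2.07 to 71.8, so every pair differed by more than sampling noise.

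In the enzyme arm replicates of equal number are the same cell line (15 of 21 same-line pairs had residual r above 0.1, lowest −0.08). The main fit there had no block for line, and line was a block in an alternative fit only. Alternatives were RLE scaling, no filter, a minimum count of 30, DESeq2, only the groups compared, each library left out, library-number runs, and summed repeats of a line. On simulated data, 40.4% of 2-fold and 83.3% of 4-fold changes were recovered for KO against WT at day 2.5 (13198 genes), and 20.6% and 67.3% for HAse1.5 against untreated (12289 genes). The simulation gave each gene its mean CPM over the arm's libraries, with no change between days. Recovery at the low day 2.5 levels of MESP1 and MESP2 in controls was therefore not simulated. The 9 genes, the lists and the comparisons were chosen with earlier results of these data known. Named genes are the 9 members, per list up to 2 highest and 2 lowest past the threshold at day 2.5, the 5 most alike for MESP1 and MESP2, and the coding neighbours of that pair. CER1, MIXL1, MAML3 and the others were named by that rule.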

Additional observations from a re-analysis of the deposited data

Results flagged for a closer look

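The change of the MESP2 difference between KO and WT from day 1.5 to day 2.5 was 3.71 on the log2 scale. It is listed because the fit called this change, but the change contains the day 2.5 contrast for which MESP2 was chosen, so the call is not independent of that choice and the value is a description.

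In 34 sets of libraries of 1 gene in 1 genotype group, 5 had a library standing apart from its group by Dixon's test, which flags about 1 set in 20 by chance. Of WT libraries at day 2.5, WT_TU_R1 stood apart in MESP2 (8.02 CPM) and in TBX6 (21.6 CPM). HES7 had a high library in KO at day 2.5 (cl4_R3, 3.34 CPM) and in WT at day 1.5 (WT_R1, 3.08 CPM), and RIPPLY2 in WT at day 1.5 (TNT2, 2.58 CPM). The HES7 and RIPPLY2 values rest on at most 11 counts.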

How the results depend on the processing

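Of 1436 log2 fold changes recomputed under an alternative, 1369 kept their direction and side of the threshold, 24 gained a call, 25 lost one and 18 changed sign. Comparisons between groups entered this count only where the higher group had a mean of at least 5 CPM. Signs also changed below that level, as for MESP1 in HAse1.5 against untreated at day 7.5 (4 of 11 alternatives). The causes were not tested. Those in the count that changed sign were uncalled. For KO against WT at day 1.5, MESP1 ranged from −0.30 to 0.030 with each library left out and LFNG from −0.38 to 0.32 (0.18 with repeats summed). At day 4.5, DLL3 ranged from −0.045 to 0.39 and was −0.088 with the R number as replicate block. LFNG in the WT step to day 2.5 ranged from −0.42 to 0.15, and the change of the MESP1 knockout difference from day 2.5 to day 4.5 from −1.34 to 0.11. In the enzyme arm with each library left out, LFNG for HAse1.5 at day 4.5 ranged from −0.23 to 0.80. DLL3 ranged from −0.23 to 1.05 for HAse1.5 and −0.034 to 1.25 for HAse2.5 at day 7.5, −0.33 to 0.16 for HAse1.5 against HAse2.5 at day 4.5, −0.97 to 0.39 in the untreated step to day 7.5, and −1.26 to 0.094 for the change of the HAse1.5 difference.

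Counts of members past the threshold moved by over 1.5 times in 31 of 431 cases. A member that an alternative's filter on low counts left out was counted as not past, so a lower count need not mean a lost call. The WT step to day 4.5 (4) had 1 with only the groups compared, where MESP1, MESP2 and TBX6 were not tested. Each of them kept its call in all 19 alternatives that tested it. The KO step to day 2.5 (5) had 3 with only the groups compared, 2 with repeats summed and 2 to 5 with each library left out. DLL1 was not tested with only the groups compared or with repeats summed. The KO step to day 7.5 (0) had 1 with DESeq2 and 1 with library-number runs. The change of the knockout difference by day 2.5 (1) had 3 with DESeq2, 2 with only the groups compared, 3 with the R number as replicate block, 3 with library-number runs and 1 to 3 with each library left out. HAse1.5 at day 2.5 (1) had 3 without a filter, 2 with DESeq2, 2 with only the groups compared, 3 with the line as replicate block and 1 to 2 with each library left out. The untreated step to day 4.5 (2) had 1 with only the groups compared, where MESP2 was not tested, and 1 to 2 with each library left out. The HAse1.5 step to day 4.5 (5) had 3 with a minimum count of 30, where TBX6 and LFNG were not tested, and 3 to 5 with each library left out. WT against untreated at day 2.5 (0) had 1 without a filter.

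Over all genes, KO against WT at day 2.5 called 137, against 215 with DESeq2, 292 with library-number runs and 2285 with the R number as replicate block, which at day 1.5 called 526 against 0. R numbers do not pair the genotype libraries (9 of 32 pairs had residual r above 0.1, lowest −0.41). HAse1.5 at day 2.5 called 146, against 290 without a filter, 242 with DESeq2, 90 with only the groups compared and 228 with the line as block. Beyond the calls of MESP1 and DLL3 given above, the line block changed no other member's call. The difference in the log2 ratio of MESP2 to MESP1 between the days in KO ran from 1.70 to 2.24 over its 13 alternatives, again as description. In all 107 alternatives of the CPM levels, TMM-scaled totals moved the group mean by less than the group's SD between libraries. With SDs this wide, that is a loose criterion. Depth limits DLL1, HES7 and RIPPLY2, which had at most 17 counts in any library.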
